A study of Mus musculus with 22 samples.

Results

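The hippocampus (HIP) of Ts66Yah mice was compared with that of their wild-type (wt) littermates by RNA-Seq, with the genes outside the triplicated chromosome segment as the subject. The samples were chosen by their labelled tissue and genotype: 11 of the 22 libraries of the series were from the HIP, 5 from wt and 6 from Ts66Yah males, aged 5 to 6 months. The other 11 came from the entorhinal cortex (EC) of the same 11 animals. Ts66Yah mice carry a supernumerary minichromosome with the part of mouse chromosome 16 (Mmu16) from Mir155 to the telomere. It was derived from the Ts65Dn minichromosome by CRISPR/Cas9 deletion of its centromeric Mmu17 part, in a single founder that was crossed to C57BL/6NCrl mice, so that the line stands on 1 recombined minichromosome. The line was then kept on a mixed background of C57BL/6J and a sighted C3H strain (B6C3B). The genes described below have the same copy number in both genotypes, except where a gene is said to be of the segment.

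The hippocampus holds the pyramidal neurons of the CA fields, the granule cells of the dentate gyrus, local inhibitory interneurons, astrocytes, oligodendrocytes, microglia and the cells of its vessels, and it is needed to form memories of places and events. The segment from Mir155 on contains the mouse counterparts of many genes of human chromosome 21, the chromosome present in an extra copy in Down syndrome.

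Depth ranged from 25900479 to 50105778 counted reads per HIP library. Levels are given as CPM, counts scaled to a common library size with TMM factors. They can be compared between libraries for 1 gene but not between genes, since they are not divided by transcript length. Over the 101 tested genes of the segment, the median level relative to the wt mean was 0.981- to 1.01-fold in the wt libraries and 1.45- to 1.52-fold in the Ts66Yah libraries, where 1 extra copy alone would give 1.5-fold. Coordinates below are of GRCm38. Markers that define the hippocampus were present in all 11 libraries: the summed level was 555 to 679 CPM for 8 dentate granule cell markers, 651 to 798 CPM for 6 CA1 markers and 311 to 363 CPM for 8 CA3 and CA2 markers. Markers of the choroid plexus, which lies in the ventricle beside the hippocampus, ranged from 123 to 3586 CPM over 12 genes. One wt library, replicate 2, stood apart in how level followed GC content. Its genes in the highest quintile of transcript GC had a median log2 level, relative to the mean of the 11 libraries, that differed by -0.166 from that of the lowest quintile, against 0.041 to 0.171 in the other 4 wt libraries and -0.133 to 0.024 in Ts66Yah.

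Of 18351 tested genes outside the segment, 51 were past the threshold. It was set at 0.05 for the p of edgeR's quasi-likelihood test, adjusted by the Benjamini-Hochberg method for the 18452 genes tested. Of these, 23 (0.125% of the genes tested) were higher and 28 (0.153%) were lower in Ts66Yah. They lay on 19 chromosomes, and 43 of them were protein-coding. The differences were small. The median log2 ratio, the log2 fold change of Ts66Yah over wt, was 0.59 for the higher genes and -0.35 for the lower genes, beside -0.000511 over all tested genes outside the segment. The wt and Ts66Yah libraries did not overlap for 22 of the 23 higher genes (0.692% of all tested genes had every Ts66Yah library above every wt library) and for 27 of the 28 lower genes (0.839% had every one below). The test favours genes with well separated libraries, so this is part of the choice. At an unadjusted p under 0.05, 923 genes (5.03%) were higher and 1184 (6.45%) lower. All 51 genes are named below. Partners and relatives of a called gene that are named beside it were chosen after the values were seen.

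Among the higher genes, 3 are processed pseudogenes, copies of the messenger RNAs of triplicated genes that were inserted elsewhere in the genome. Gm11966 (chromosome 11, 5818497 to 5818583) is a copy of part of Atp5j, and Gm5436 (chromosome 12, 84258331 to 84258973) one of Atp5o, both genes for subunits of the mitochondrial ATP synthase. Gm8566 (chromosome 6, 67205619 to 67206083) is a copy of Sod1, the cytosolic superoxide dismutase. The sequences of the ATP synthase pairs are shown because reads of 50 bases have to tell the copy from its parent. Gm11966 is given whole, and the first 120 bases of Gm5436 and Atp5o are given from the alignment of their transcripts in GENCODE M21 (GRCm38), 5′ to 3′, with each base that differs between copy and parent in capitals.
Gm11966: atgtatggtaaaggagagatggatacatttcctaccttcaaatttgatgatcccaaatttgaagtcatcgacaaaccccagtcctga
Gm5436: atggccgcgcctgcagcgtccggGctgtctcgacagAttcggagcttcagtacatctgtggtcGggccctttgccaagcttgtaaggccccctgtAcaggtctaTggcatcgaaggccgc
Atp5o: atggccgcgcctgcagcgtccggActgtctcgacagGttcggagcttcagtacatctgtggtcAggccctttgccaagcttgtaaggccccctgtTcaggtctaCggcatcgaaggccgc

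Over its 87 bases, Gm11966 had 0 mismatches to the Atp5j transcript, and thus all 38 stretches of 50 bases were identical. Gm5436 matched Atp5o at 97.0% of 643 bases with 19 mismatches, 5 of them in the part shown, and 25.4% of its 594 stretches of 50 bases were identical to the parent. Gm8566 matched Sod1 at 97.8% of 465 bases with 10 mismatches, and 32.9% of its 416 stretches were identical. In wt, Gm11966 was at 18.7, 15.9, 16.9, 21.9 and 22.3 CPM. In Ts66Yah it was at 30.4 to 37.8 CPM with a median of 32.9. The groups did not overlap, and the log2 ratio was 0.80 (SE 0.09, adjusted p 0.000391 by edgeR), against 0.54 (SE 0.06) for Atp5j. Gm5436 rose from 12.1 ± 0.973 CPM (n = 5, SD) to 18.1 ± 1.85 CPM (n = 6, SD), a log2 ratio of 0.59 (SE 0.08, adjusted p 0.00195 by edgeR), against 0.71 (SE 0.07) for Atp5o. Gm8566 rose from 17.1 ± 3.85 CPM (n = 5, SD) to 26.4 ± 1.86 CPM (n = 6, SD), a log2 ratio of 0.63 (SE 0.12, adjusted p 0.034 by edgeR), against 0.43 (SE 0.07) for Sod1. Reads of a copy and of its parent cannot be told apart where the sequences are identical, and the levels of these 3 genes are uncertain for that reason. In all, 21 tested genes outside the segment aligned to a segment transcript over at least 80% of their length at 90% identity or more, and the other 18 were not called.

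Of the lower genes, Ucp2, Rfx5 and Gpc5 remained past the threshold in each of the 11 fits that left out 1 library. Rfx5 (chromosome 3, 94954075 to 94961561) encodes the DNA-binding subunit of the RFX complex, which drives transcription of the major histocompatibility complex (MHC) class II genes. Its level in wt was 15.1, 13.99, 14.8, 14.6 and 14.2 CPM. In Ts66Yah it was at 9.41 to 11.4 CPM with a median of 10.5. Every Ts66Yah library was below every wt library, and the spread within each genotype was narrow. The fall was to 0.721-fold, a log2 ratio of -0.47 (SE 0.06, adjusted p 0.0016 by edgeR).

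The other subunits of that complex and 4 genes that it regulates were not called. Rfxap had a log2 ratio of -0.13 (adjusted p 0.35 by edgeR) and Rfxank one of 0.17 (adjusted p 0.44 by edgeR). Ciita, the class II co-activator, was at 0.962 ± 0.0284 CPM (n = 5, SD) in wt and 1.04 ± 0.245 CPM (n = 6, SD) in Ts66Yah. The class II genes H2-Aa, H2-Ab1 and H2-Eb1 and their invariant chain Cd74 had log2 ratios of 0.81, 0.53, 0.73 and 0.71, opposite in sign to that of Rfx5. Their edgeR adjusted p-values were 0.456, 0.647, 0.403 and 0.404. Before adjustment, the edgeR p-values of H2-Aa, H2-Ab1, H2-Eb1 and Cd74 were 0.0636, 0.202, 0.0438 and 0.0441. Cd74, with the highest CPM of the 4, was at 2.74 ± 1.06 CPM (n = 5, SD) in wt and 4.53 ± 1.97 CPM (n = 6, SD) in Ts66Yah, with overlapping libraries.

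Gpc5 (chromosome 14, 115092215 to 116525179) encodes glypican 5, a heparan sulfate proteoglycan that is anchored to the cell surface by a lipid. In wt it was at 48.6, 48.1, 47.4, 45.1 and 47.3 CPM. The Ts66Yah libraries were at 34.9 to 39.1 CPM with a median of 36.1, again with no overlap. The log2 ratio was -0.36 (SE 0.05), or 0.777-fold, and its edgeR adjusted p of 0.000764 was the smallest among the protein-coding genes outside the segment. Other glypicans were not called: Gpc1, Gpc4 and Gpc6 had log2 ratios of 0.05, -0.03 and -0.08.

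Ucp2 (chromosome 7, 100493337 to 100502020) encodes uncoupling protein 2, a carrier of the inner mitochondrial membrane. Its wt libraries were at 35.97, 51.95, 41.6, 31.2 and 36.1 CPM. The Ts66Yah libraries were at 18.7 to 26.8 CPM with a median of 23.4. The groups did not overlap, although the wt libraries were spread widely. The log2 ratio of -0.77 (SE 0.13, adjusted p 0.0146 by edgeR) was the largest fall among called genes that averaged 1 CPM or more. The related carriers of brain, Slc25a27 and Slc25a14, had log2 ratios of -0.04 and 0.07 and were not called.

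**Figure D1:**
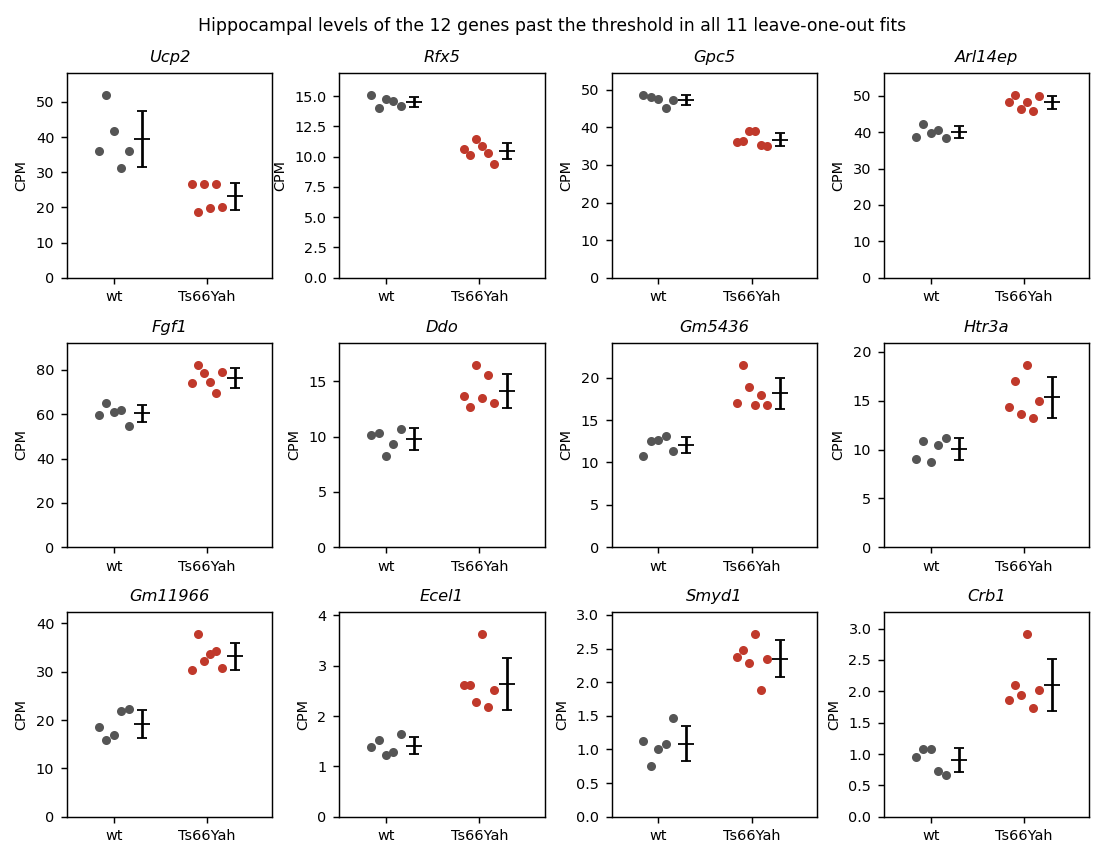
Level in CPM (vertical axis, from 0) of the 12 genes outside the segment that stayed past the threshold in all 11 leave-one-out fits, with 1 point per library (grey wt, n = 5, and red Ts66Yah, n = 6) and the mean and SD beside them. Ucp2, Rfx5 and Gpc5 were lower and the other 9 genes higher in Ts66Yah, with no overlap between the genotypes in any of the 12.

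Of the higher genes, 9 remained in each leave-one-out fit: Arl14ep, Fgf1, Ddo, Htr3a, Ecel1, Smyd1, Crb1 and the pseudogenes Gm5436 and Gm11966. Htr3a (chromosome 9, 48899213 to 48911099) encodes the A subunit of the serotonin 5-HT3 receptor, an ion channel that in the forebrain marks a class of inhibitory interneurons. Its wt level was 9.03, 10.8, 8.71, 10.4 and 11.2 CPM. Its Ts66Yah level was 13.2 to 18.7 CPM with a median of 14.7, so that each Ts66Yah library was above each wt library. The log2 ratio was 0.61 (SE 0.10, adjusted p 0.0126 by edgeR), or 1.53-fold.

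The list of 13 interneuron markers had no call, 9 positive log2 ratios and a median log2 ratio of 0.09. Its 6 members at an unadjusted p under 0.05 are named here, chosen after their values were seen. The rest of the list, with Vip, Lamp5, Gad1 and Dlx1 among them, was at an unadjusted edgeR p of 0.05 or more. Calbindin 2 (Calb2), neuropeptide Y (Npy), reelin (Reln) and glutamate decarboxylase 2 (Gad2) had positive log2 ratios of 0.56, 0.33, 0.22 and 0.21, with unadjusted edgeR p-values of 0.0326, 0.00662, 0.00919 and 0.0169. Parvalbumin (Pvalb) and somatostatin (Sst), which mark other main interneuron classes, had negative ones of -0.31 and -0.51, with unadjusted edgeR p-values of 0.00119 and 0.0014. None of the 6 passed the threshold, and their adjusted p-values were 0.363, 0.22, 0.244, 0.299, 0.108 and 0.119. The summed level of the list was 1422 to 1557 CPM in wt. In Ts66Yah it was 1388 CPM in replicate 5 and 1553 to 1597 in the other libraries. As these are bulk samples, fewer cells of a type and less RNA per cell cannot be told apart.

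Fgf1 (chromosome 18, 38838673 to 38929472), acidic fibroblast growth factor, is a secreted ligand of the FGF receptors. It was at 59.8, 65.2, 60.96, 61.8 and 54.7 CPM in wt. In Ts66Yah it was at 69.4 to 82.3 CPM with a median of 76.5, with no overlap. Its log2 ratio was 0.34 (SE 0.05, adjusted p 0.00902 by edgeR), or 1.26-fold. The receptor Fgfr1 had a log2 ratio of 0.14 (SE 0.04, adjusted p 0.237 by edgeR) and the ligand Fgf2 one of 0.07 (SE 0.17). Fgfr3, a receptor of astrocytes, had the smallest p in the astrocyte list (log2 ratio -0.26, SE 0.06, adjusted p 0.0921 by edgeR). A transcript on the opposite strand within the span of Fgf1, AC110730.1, was at 0.465 ± 0.170 CPM (n = 5, SD) in wt and 0.865 ± 0.192 CPM (n = 6, SD) in Ts66Yah (adjusted p 0.164 by edgeR).

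Ddo (chromosome 10, 40630011 to 40681847), D-aspartate oxidase, breaks down D-aspartate, an amino acid that acts on NMDA receptors. It was at 10.1, 10.3, 8.20, 9.37 and 10.7 CPM in wt and at 12.7 to 16.5 CPM with a median of 13.6 in Ts66Yah. The groups did not overlap, and the log2 ratio was 0.54 (SE 0.09, adjusted p 0.0135 by edgeR). Arl14ep (chromosome 2, 106962527 to 106974424), an effector of the small GTPase ARL14, was at 38.5, 42.4, 39.8, 40.7 and 38.5 CPM in wt and at 45.8 to 50.2 CPM with a median of 48.2 in Ts66Yah. Its log2 ratio was 0.27 (SE 0.04, adjusted p 0.0105 by edgeR), the smallest of the 9.

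Most of the largest rises came from genes with low counts. Crb1, a cell polarity protein best known from the retina, was at 0.904 ± 0.197 CPM (n = 5, SD) in wt and 2.10 ± 0.418 CPM (n = 6, SD) in Ts66Yah, a log2 ratio of 1.20 (SE 0.19, adjusted p 0.00568 by edgeR). Smyd1, a histone methyltransferase of muscle, was at 1.09 ± 0.257 CPM (n = 5, SD) and 2.35 ± 0.272 CPM (n = 6, SD), with 1.11 (SE 0.17, adjusted p 0.00448 by edgeR). Ecel1, a neuronal endopeptidase-like protein that is induced by nerve injury, was at 1.41 ± 0.171 CPM (n = 5, SD) and 2.64 ± 0.515 CPM (n = 6, SD), with 0.90 (SE 0.15, adjusted p 0.0131 by edgeR). Ts66Yah replicate 4 was the highest library for each of these 3 genes, at 2.91, 2.71 and 3.63 CPM. Slc5a5, the sodium iodide symporter of the thyroid, had the largest log2 ratio among called genes that averaged 1 CPM or more, 1.27 (SE 0.24, adjusted p 0.0264 by edgeR). Its wt libraries were at 13.3, 11.6, 4.58, 12.2 and 12.7 CPM and its Ts66Yah libraries at 15.7 to 31.6 CPM with a median of 26.9. It was past the threshold in 5 of the 11 leave-one-out fits.

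The other higher genes fall into several roles. Col4a1 (chromosome 8, 11198423 to 11312826), a collagen chain of the basement membrane around vessels, was at 44.04, 32.7, 32.3, 39.8 and 36.9 CPM in wt and at 46.4 to 58.1 CPM with a median of 50.3 in Ts66Yah. Its log2 ratio was 0.45 (SE 0.08, adjusted p 0.0225 by edgeR). Col4a2, which encodes its partner chain and overlaps it on the opposite strand, was at 44.8 ± 7.85 CPM (n = 5, SD) and 58.5 ± 3.44 CPM (n = 6, SD), with a log2 ratio of 0.39 (adjusted p 0.115 by edgeR). The 10 endothelial markers had a median log2 ratio of 0.027 and the 9 mural cell markers one of -0.10, with no call in either list. The smallest p-values in them were those of the VEGF receptor Kdr, with a log2 ratio of 0.36 (unadjusted edgeR p 0.00712), and of the pericyte channel Kcnj8, with -0.34 (unadjusted edgeR p 0.00927). The summed level of the 11 meningeal fibroblast markers, cells that also make this collagen, was 400.2 to 619.7 CPM in wt and 398 to 933 in Ts66Yah, and its part in the Col4a1 difference was not tested.

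Lcat, lecithin-cholesterol acyltransferase, an enzyme that esterifies the cholesterol of lipoproteins, was at 25.7, 20.01, 22.3, 23.7 and 20.5 CPM in wt and at 27.97 to 35.9 CPM with a median of 31.1 in Ts66Yah. Its log2 ratio was 0.50 (SE 0.09, adjusted p 0.0157 by edgeR), and it was kept in 10 of 11 leave-one-out fits. Apoe, which encodes the main apolipoprotein of the brain, had a log2 ratio of -0.24 (adjusted p 0.338 by edgeR). Slc25a34, a mitochondrial carrier, rose by 0.53 on the log2 scale (SE 0.10), and Prx, periaxin, a scaffold protein of myelinating Schwann cells, by 0.65 (SE 0.12). As3mt, an arsenite methyltransferase, rose by 0.39 (SE 0.07), and Srl, sarcalumenin, a calcium-binding protein of the sarcoplasmic reticulum, by 0.35 (SE 0.07). The fibronectin type III domain gene Fndc9 rose by 0.81 (SE 0.16), from 1.31 ± 0.108 CPM (n = 5, SD) to 2.29 ± 0.446 CPM (n = 6, SD). It lies within Cyfip2 on the opposite strand, which was at 1304 CPM in wt and 1301 in Ts66Yah. The leave-one-out fits that kept the call numbered 7 of 11 for Slc25a34 and Prx, 4 for As3mt, and 2 for Srl and Fndc9.

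Uhmk1, a kinase that phosphorylates splicing factors, had the highest CPM of the higher genes, at 363 ± 9.55 CPM (n = 5, SD) in wt and 441 ± 40.6 CPM (n = 6, SD) in Ts66Yah, a log2 ratio of 0.28 (SE 0.06, adjusted p 0.0474 by edgeR). Synj2 (chromosome 17, 5941280 to 6044290), a phosphoinositide phosphatase, rose by 0.24 (SE 0.05, adjusted p 0.035 by edgeR). It lies in the Mmu17 part that was deleted from the minichromosome. The authors of the study list Synj2 among genes of that part that differed from wt in Ts65Dn and not in Ts66Yah. Their calls came from a different method, FCROS. The fold change they give for Synj2 in the Ts66Yah HIP is 1.18, and it was 1.18 here. The difference is thus in the call and not in the size of the rise. The call was kept in 3 leave-one-out fits. It was lost when both regions were fitted together (adjusted p 0.203 by edgeR) and with the replicate number as a block (adjusted p 0.15 by edgeR). Synj1, the paralog of Synj2 and a gene of the segment, rose by 0.69 (SE 0.06). The 3 further higher genes are non-coding or predicted genes. Gm42608, within Dclk1 on the same strand, rose from 2.11 ± 0.351 CPM (n = 5, SD) to 4.04 ± 0.901 CPM (n = 6, SD), a log2 ratio of 0.94 (SE 0.17), whereas Dclk1 had one of 0.06 (SE 0.06) at 843 and 879 CPM. Gm31305, antisense to Pde4dip, rose by 0.56 (SE 0.12). Gm13872, antisense to the astrocyte glutamate transporter Slc1a2, was at 0.0728 ± 0.0444 CPM (n = 5, SD) in wt and 0.745 ± 0.502 CPM (n = 6, SD) in Ts66Yah, with overlapping libraries and 1 wt library at 0. Whether the counting used strand is not given in the sources used here, so reads of such pairs may not be separable.

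Several of the lower genes act on the cytoskeleton and in vesicle traffic. Coro6, an actin-binding coronin, fell from 16.8 ± 1.65 CPM (n = 5, SD) to 11.02 ± 2.07 CPM (n = 6, SD), a log2 ratio of -0.61 (SE 0.12, adjusted p 0.0368 by edgeR). Fcho1, which acts at the start of clathrin-coated pits, fell from 63.4 ± 12.5 CPM (n = 5, SD) to 42.3 ± 6.22 CPM (n = 6, SD), a log2 ratio of -0.58 (SE 0.12, adjusted p 0.0478 by edgeR). It was the only lower gene whose groups overlapped, by Ts66Yah replicate 1 at 54.6 CPM. Arhgef10l, a guanine nucleotide exchange factor, had a log2 ratio of -0.36 (SE 0.07), and Pak6, a kinase of the PAK family, one of -0.28 (SE 0.05). Kifc2, a neuronal kinesin, fell from 549 ± 28.2 CPM (n = 5, SD) to 439 ± 31.8 CPM (n = 6, SD), a log2 ratio of -0.32 (SE 0.06, adjusted p 0.0139 by edgeR). Tbc1d9b, a Rab GTPase-activating protein, and Plekhm2, an adaptor that couples lysosomes to kinesin, had log2 ratios of -0.27 (SE 0.05) and -0.25 (SE 0.05). Of these genes, Fcho1, Arhgef10l, Pak6, Kifc2 and Plekhm2 were lost with the GC correction described below, and Coro6 and Tbc1d9b were kept. Of the 11 leave-one-out fits, 2 kept Coro6 and Fcho1, 3 kept Arhgef10l, Pak6 and Plekhm2, and 9 kept Kifc2 and Tbc1d9b. The 27 SNARE and synaptic vesicle genes had no call and a median log2 ratio of -0.013, with the calcium sensor Syt2 at -0.52 (SE 0.15, unadjusted edgeR p 0.00404) and the one with the highest CPM, Snap25, at 0.01 (SE 0.05).

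A further group of lower genes works in the nucleus. Snrpb, a core protein of the spliceosome, fell from 62.1 ± 1.79 CPM (n = 5, SD) to 50.1 ± 4.19 CPM (n = 6, SD), a log2 ratio of -0.31 (SE 0.06, adjusted p 0.0208 by edgeR). Its brain paralog Snrpn had one of -0.03 and was not called. Gar1, a protein of the H/ACA small nucleolar ribonucleoproteins, fell from 14.4 ± 1.14 CPM (n = 5, SD) to 11.2 ± 0.655 CPM (n = 6, SD), a log2 ratio of -0.36 (SE 0.07, adjusted p 0.0334 by edgeR). Its partners in the particle, Nhp2, Nop10 and Dkc1, had log2 ratios of -0.19, 0.22 and 0.08, and none was called. Mxd4, a repressor that pairs with MAX, had a log2 ratio of -0.31 (SE 0.06), the centromere-binding protein gene Cenpb of -0.28 (SE 0.05), the histone chaperone gene Hira of -0.27 (SE 0.06) and the PHD finger gene Mllt6 of -0.20 (SE 0.04). Hira lies on Mmu16 outside the segment (chromosome 16, 18877037 to 18970309) and was lost in every leave-one-out fit. Among the others, 2 of the 11 leave-one-out fits kept Gar1 and Mxd4, 7 kept Snrpb, 8 kept Mllt6 and 9 kept Cenpb. Gar1, Hira and Mllt6 were lost with the GC correction described below, and Snrpb, Mxd4 and Cenpb were kept. The 32 splicing genes had a median log2 ratio of -0.039 and no call, and Nova1, a neuronal splicing regulator, had the smallest p among them (-0.28, SE 0.07, adjusted p 0.0852 by edgeR).

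Dyrk1b (chromosome 7, 28179469 to 28187294) is a kinase whose paralog Dyrk1a lies in the segment. Dyrk1b was at 15.8, 14.3, 17.2, 16.3 and 21.2 CPM in wt and at 11.4 to 13.9 CPM with a median of 12.1 in Ts66Yah, a log2 ratio of -0.45 (SE 0.09, adjusted p 0.0474 by edgeR). Dyrk1a rose from 90.6 ± 4.88 CPM (n = 5, SD) to 132 ± 3.60 CPM (n = 6, SD), a log2 ratio of 0.54 (SE 0.04). The call for Dyrk1b was kept in 1 of the 11 leave-one-out fits. Mcc, a tumour suppressor that can inhibit Wnt signalling, had a log2 ratio of -0.45 (SE 0.08, adjusted p 0.0238 by edgeR), and Apc2, a neuronal relative of Apc, one of -0.23 (SE 0.05, adjusted p 0.0478 by edgeR). Apc itself had one of 0.08. The 27 genes of the Wnt list had a median log2 ratio of -0.06 (0.01 after the GC correction described below), 10 positive values and no call. Dkk3, a secreted protein of the Dickkopf family, had both the highest CPM and the smallest p, at 584 ± 40.9 CPM (n = 5, SD) in wt and 501 ± 39.7 CPM (n = 6, SD) in Ts66Yah (log2 ratio -0.22, SE 0.06, adjusted p 0.166 by edgeR).

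Mfge8, a secreted protein that bridges phagocytes to phosphatidylserine, fell from 153 ± 16.4 CPM (n = 5, SD) to 118 ± 11.8 CPM (n = 6, SD), a log2 ratio of -0.37 (SE 0.08, adjusted p 0.0493 by edgeR). Lower genes of metabolism and signalling were Fam213b, a prostamide and prostaglandin F synthase, with a log2 ratio of -0.34 (SE 0.06), and Phka1, a subunit of phosphorylase kinase, with -0.26 (SE 0.05). Inpp5k, a phosphoinositide phosphatase, had one of -0.23 (SE 0.04), and Matk, a kinase that inhibits Src family kinases, one of -0.24 (SE 0.04). Izumo4 (-0.35, SE 0.07) and the non-coding 5031425E22Rik (-0.37, SE 0.08) were the other lower genes above 1 CPM. The remaining 2 were at about 1 CPM or less: the non-coding D630033O11Rik was at 0.923 ± 0.154 CPM (n = 5, SD) in wt and 0.343 ± 0.140 CPM (n = 6, SD) in Ts66Yah, and Urah, 5-hydroxyisourate hydrolase, at 1.04 ± 0.125 CPM (n = 5, SD) and 0.521 ± 0.105 CPM (n = 6, SD).

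Features of sequence were then described over the called genes. The transcripts of the 28 lower genes had a median GC content of 56.25%, against 50.26% for the 23 higher genes and 49.45% over all tested genes outside the segment, and 25 of the 28 lay above that last value. The GC trend of the libraries also moved with genotype: it was above 0 in 4 of 5 wt libraries and in 2 of 6 Ts66Yah libraries. With a correction that removed this trend from each library, 52 genes were past the threshold, 30 higher and 22 lower in place of 23 and 28. It kept 21 of the 23 higher and 15 of the 28 lower genes. Rfx5 and Gpc5, with transcripts of 49.55% and 48.85% GC, had log2 ratios of -0.48 and -0.37 after it, and Ucp2, with 55.02%, had one of -0.74. Dyrk1b, with 62.79%, went from -0.45 to -0.29, Apc2, with 61.44%, from -0.23 to -0.11, and Plekhm2, with 59.82%, from -0.25 to -0.16, and all 3 were lost. The part of GC content in the falls of the genes that were lost was not tested further.

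**Figure D2:**
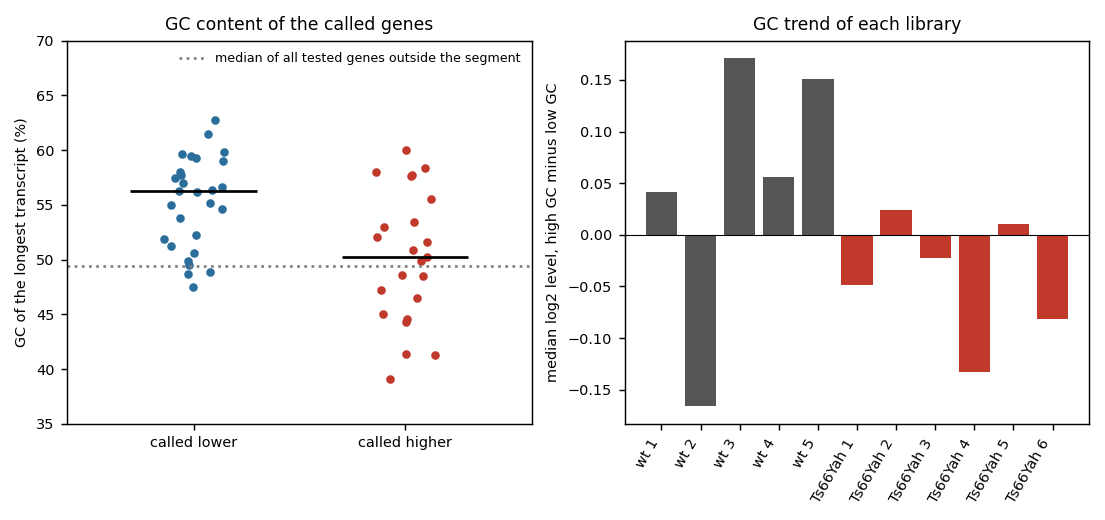
Left, GC content of the transcript (vertical axis, percent) for each gene called lower (n = 28) or higher (n = 23) in Ts66Yah, with the median of each set and, dotted, that of all tested genes outside the segment (49.45%). Right, for each library, the median log2 level of the quintile of genes with the highest GC minus that of the quintile with the lowest, as bars from 0 (grey wt, red Ts66Yah), in which wt replicate 2 lies at -0.166 and the other wt libraries above 0.

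Promoters from RefSeq (GRCm38.p6), from 250 bases before to 50 after the start of transcription, were found by symbol for 16 of the 23 higher genes, 23 of the 28 lower genes and 12457 of the tested genes outside the segment. Their median GC content was 54.8%, 62.7% and 60.3%. Motifs were searched on both strands. The CCAAT box (CCAAT) was found in 13 of 16 promoters of higher genes (81.2%) and 6 of 23 of lower genes (26.1%), against 38.0% of all. The RUNX motif TGTGGT was in 1 of 16 (6.25%) and 5 of 23 (21.7%), against 12.5%, and the E-box CACGTG in 2 of 16 (12.5%) and 2 of 23 (8.7%), against 9.58%. The ETS motif CCGGAAGT, to which GABPA of the segment can bind, was in 1 of 16 (6.25%) and 1 of 23 (4.35%), against 7.18%. The BACH1 motif and the cAMP response element were in 0 of either set, against 0.104% and 3.04% of all. The motifs can overlap each other, and these shares describe only the letters in these windows. The CCAAT letters were at more than 1 place in the promoters of the lower genes Rfx5, Mxd4 and 5031425E22Rik. The same held for the higher genes Crb1 and Ddo. The promoters of Rfx5 (chr3:94953858-94954157, plus strand) and Crb1 (chr1:139377027-139377326, minus strand) are shown as examples. They are given 5′ to 3′ with the matched motifs in capitals.
Rfx5: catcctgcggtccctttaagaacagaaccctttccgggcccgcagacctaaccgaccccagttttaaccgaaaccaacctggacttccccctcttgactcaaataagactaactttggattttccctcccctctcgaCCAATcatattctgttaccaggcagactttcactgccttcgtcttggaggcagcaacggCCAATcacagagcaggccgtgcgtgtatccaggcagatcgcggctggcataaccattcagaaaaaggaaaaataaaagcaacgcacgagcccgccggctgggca
Crb1: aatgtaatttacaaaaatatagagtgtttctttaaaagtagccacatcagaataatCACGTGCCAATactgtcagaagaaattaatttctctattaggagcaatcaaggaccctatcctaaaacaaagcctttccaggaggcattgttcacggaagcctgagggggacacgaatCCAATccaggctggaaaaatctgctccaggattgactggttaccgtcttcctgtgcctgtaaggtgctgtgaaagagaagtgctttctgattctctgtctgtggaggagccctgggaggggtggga

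Marker lists of 19 cell types and 21 lists of functions gave the wider context. Together they held 749 tested genes, of which 1, Slc5a5, was called, in the list for thyroid hormone handling. The other 50 called genes were in no list, and 39 of the 40 lists had no call. At an unadjusted p under 0.05, 44 of the 749 genes were higher and 75 lower. Over all tested genes outside the segment, 5.03% were higher and 6.45% lower at that level, and the list counts below stand beside these shares. List medians ranged from -0.207 to 0.223 on the log2 scale, and 23 of 40 were above 0.

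No marker of the principal neurons was called. The median log2 ratio was -0.021 for CA1, 0.002 for CA3 and CA2, and -0.012 for the dentate granule cells. Mpped1, the CA1 marker with the highest CPM, was at 220.5 ± 11.99 CPM (n = 5, SD) in wt and 221 ± 18.4 CPM (n = 6, SD) in Ts66Yah. Rgs14 of CA2 was at 155 ± 10.7 CPM (n = 5, SD) and 159 ± 14.2 CPM (n = 6, SD), and the granule cell marker Stxbp6 at 147 ± 18.5 CPM (n = 5, SD) and 136 ± 14.7 CPM (n = 6, SD). C1ql2, a synaptic organizer of the mossy fibres, had the smallest p of the granule cell list (log2 ratio -0.60, SE 0.22, unadjusted edgeR p 0.0176). Of 11 markers of newborn neurons and cycling cells, Dcx was at 20.01 ± 2.81 CPM (n = 5, SD) and 19.4 ± 2.48 CPM (n = 6, SD), and Sox4, a factor of neuronal differentiation, had the smallest p (log2 ratio -0.28, SE 0.06, adjusted p 0.0678 by edgeR).

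The glial lists had no call either. In astrocytes the median of 11 markers was -0.043, with Slc1a2 at 2835 ± 162 CPM (n = 5, SD) and 2871 ± 157 CPM (n = 6, SD). In 8 reactive astrocyte markers it was 0.18, with the protease inhibitor Serpina3n at 64.6 ± 5.08 CPM (n = 5, SD) and 78.6 ± 20.8 CPM (n = 6, SD). In microglia the median of 14 markers was -0.12. Csf1r, the receptor on which these cells depend, was at 96.3 ± 15.1 CPM (n = 5, SD) and 96.2 ± 5.54 CPM (n = 6, SD), while the lipid receptor Trem2 had a log2 ratio of -0.50 (SE 0.11) that missed the threshold (adjusted p 0.0679 by edgeR). The 12 markers of mature oligodendrocytes and 7 of their precursors had medians of -0.07 and -0.06, and the myelin gene Mbp was at 4229 ± 822 CPM (n = 5, SD) and 3928 ± 442 CPM (n = 6, SD).

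Markers of tissue that borders the hippocampus varied widely among libraries. Ttr of the choroid plexus was at 1630 ± 1198 CPM (n = 5, SD) in wt and 1411 ± 796 CPM (n = 6, SD) in Ts66Yah. The list medians were -0.21 for choroid plexus, 0.19 for meningeal fibroblasts, 0.13 for ependymal cells, 0.049 for erythroid cells, 0.06 for striatal, 0.004 for thalamic and -0.09 for neocortical neurons. The neocortical marker Fezf2 missed the threshold (log2 ratio -0.37, SE 0.08, adjusted p 0.0729 by edgeR).

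Among the functions, the interferon response list had the highest median, 0.22 over 29 genes. Its summed level was 142.1 to 163.4 CPM in wt replicates 1 to 4 and 194.3 in wt replicate 5, against 160.5 to 195.8 in Ts66Yah. The groups thus overlapped, mainly through wt replicate 5. Of the 29 genes, 27 had a positive log2 ratio, and no gene was called. At an unadjusted edgeR p under 0.05, 6 were higher and 0 lower, beside 5.03% and 6.45% over all tested genes outside the segment. Ifi27, its gene with the highest CPM, was at 35.9 ± 6.17 CPM (n = 5, SD) and 42.1 ± 4.68 CPM (n = 6, SD), and Isg15 had the smallest p (log2 ratio 0.59, SE 0.20, adjusted p 0.248 by edgeR). The medians for antigen presentation and complement were 0.11 and 0.11. In the circadian clock list the median was -0.15, and 6 of 16 genes were lower at an unadjusted p under 0.05, namely Per3, Cry1, Dbp, Tef, Hlf and Bhlhe41, which were named after their values were seen. Per3, a repressor of the clock, had the smallest p (log2 ratio -0.39, SE 0.11, adjusted p 0.184 by edgeR). The time of day at which the brains were taken is not given in the sources used here.

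In energy metabolism and translation, most unadjusted differences were on the lower side. Of 90 nuclear genes of the respiratory chain and ATP synthase, 17 were lower and 3 higher at an unadjusted p under 0.05. Over all tested genes outside the segment, 6.45% were lower and 5.03% higher. The median log2 ratio of the list was -0.019. Its summed level overlapped between the groups, at 8612 to 10040 CPM in wt and 8664 to 9851 in Ts66Yah. Atp5b, with the highest CPM, was at 1163 ± 61.6 CPM (n = 5, SD) and 1132 ± 62.4 CPM (n = 6, SD). Ndufb9, a subunit of complex I, had the smallest p (log2 ratio -0.18, SE 0.05, adjusted p 0.162 by edgeR). Of 80 ribosomal protein genes, 13 were lower and 1 higher, with a median of -0.07, and Rpl7a had the smallest p (log2 ratio -0.52, SE 0.12, adjusted p 0.0852 by edgeR). Their summed level was 4355 to 5187 CPM in wt and 4431 to 4960 in Ts66Yah, with overlap. Rpl7a is among the 21 tested genes that share sequence with the segment. It aligned to Gm49641 over 87% of its transcript at 91.98% identity. The 13 mitochondrially encoded genes had a median of 0.10 and no unadjusted p under 0.05.

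In the stress response list, Hspa8, the constitutive heat shock protein that uncoats clathrin vesicles, was at 310.0 ± 70.7 CPM (n = 5, SD) in wt and 477 ± 69.1 CPM (n = 6, SD) in Ts66Yah, a log2 ratio of 0.62 (SE 0.14) that missed the threshold (adjusted p 0.0722 by edgeR). The median of its 16 genes was 0.035. In the cholesterol synthesis list, 4 of 19 genes were higher at an unadjusted p under 0.05 and 0 lower. Sc5d, of the last steps of the pathway, was at 61.04 ± 9.17 CPM (n = 5, SD) and 81.2 ± 6.29 CPM (n = 6, SD), with a log2 ratio of 0.41 (SE 0.09, adjusted p 0.0611 by edgeR), and the regulator Srebf2 had one of -0.09 (SE 0.06). Among receptors and channels, the NMDA receptor subunit gene Grin2c had the smallest p (log2 ratio -0.29, SE 0.06, adjusted p 0.056 by edgeR). Of 42 potassium and HCN channel genes, 6 were lower and 1 higher at an unadjusted p under 0.05, with the smallest p for Kcnh3 (log2 ratio -0.21, SE 0.06, adjusted p 0.163 by edgeR). The list medians were 0.014 for glutamate receptors, 0.042 for GABA receptors and 0.0 for these channels. For the lists not yet given, the medians were 0.11 for activity-regulated genes, 0.06 for neuropeptides, 0.049 for axon guidance, 0.09 for cholesterol synthesis, 0.021 for lysophospholipid receptors and 0.034 for thyroid hormone handling.

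**Figure D3:**
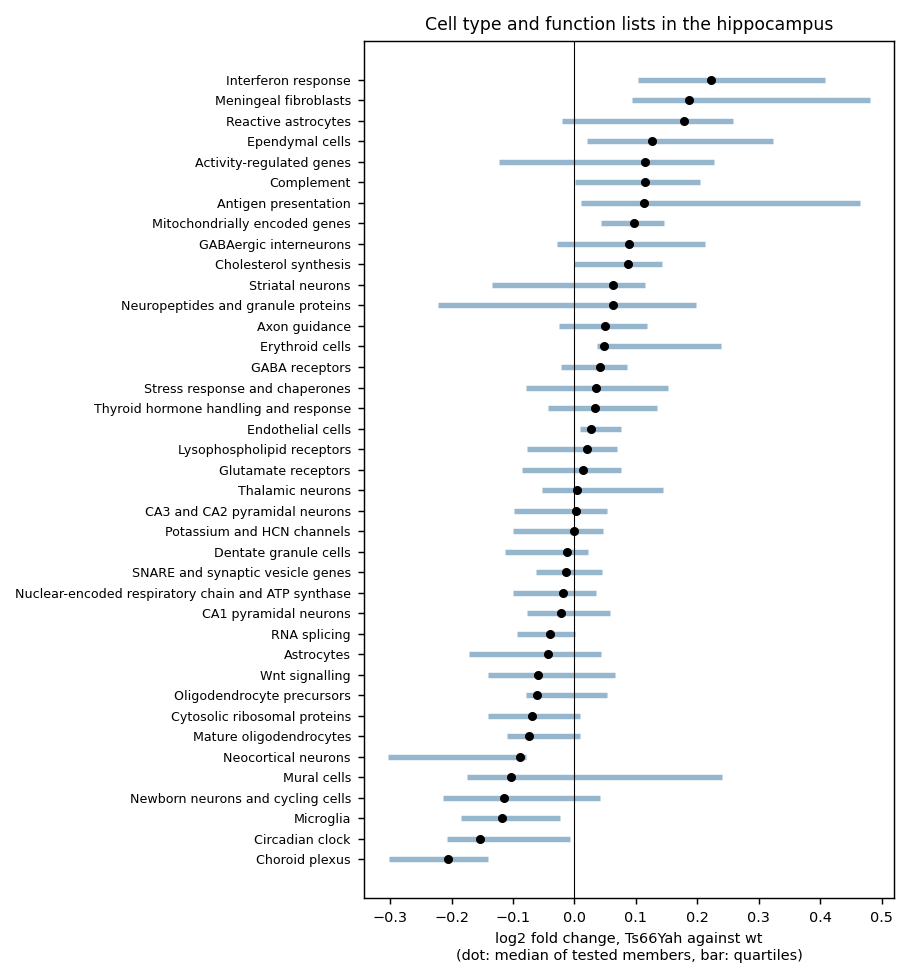
Log2 fold change of Ts66Yah against wt (horizontal axis) for the tested members of 39 of the 40 lists, ordered by median, with the median as a dot and the quartiles as a bar. Medians lay between -0.207 for the choroid plexus and 0.223 for the interferon response.

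How often each call was kept was counted over the 11 leave-one-out fits. The median was 8 fits for the higher genes and 4 for the lower genes, a description with no test, and 26 of the 51 genes were kept in 5 fits or fewer. Outside the segment, 23 genes were past the threshold when Ts66Yah replicate 6 was left out, and 91 when wt replicate 2 was. Without wt replicate 2 there were 24 higher and 67 lower genes, among them 18 of the 23 higher and 23 of the 28 lower genes. When all 22 libraries were fitted together, 14 of the higher and 10 of the lower genes were kept. In all 11 leave-one-out fits and all 10 further settings, 4 genes were past the threshold: Rfx5, Gpc5 and the pseudogenes Gm5436 and Gm11966. The 10 settings include the replicate number as a block, although, as given below, no sign was seen that these numbers pair the samples. Crb1 and Smyd1 were kept in all 11 leave-one-out fits and lost only with that block. Col4a1 and Gm42608 were kept in all 10 settings and in 8 leave-one-out fits each.

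**Figure D4:**
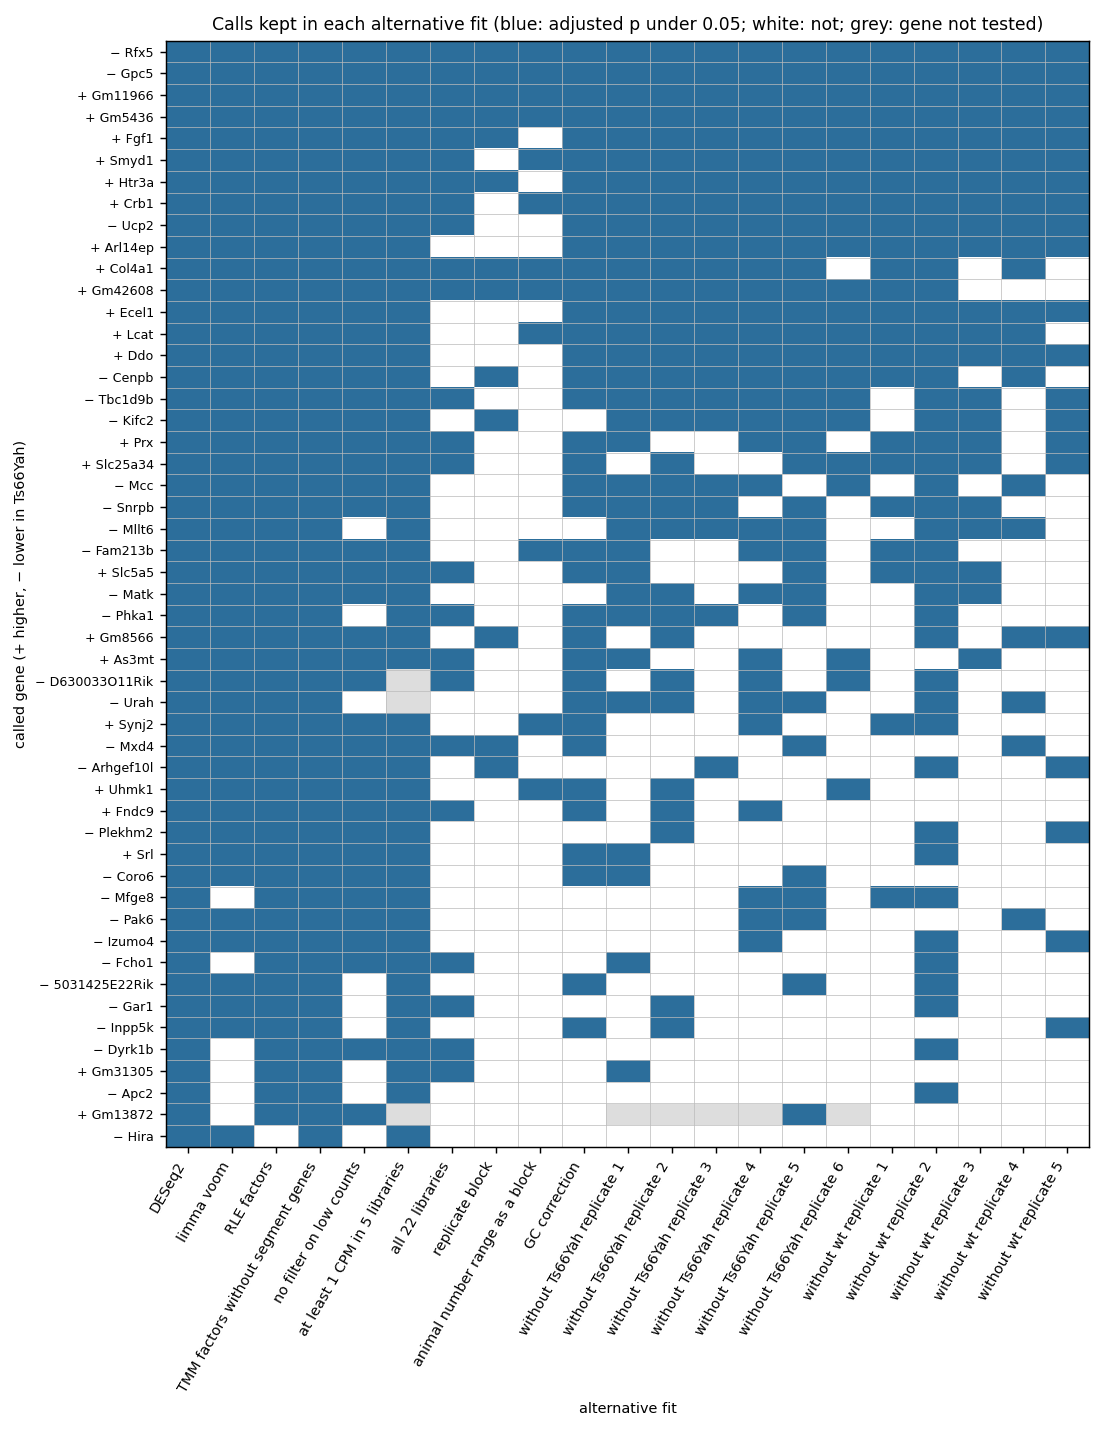
Each row is a called gene and each column an alternative fit, and a cell is blue where the adjusted p stayed under 0.05, white where it did not and grey where the gene was not tested. Rfx5, Gpc5, Gm11966 and Gm5436 were kept in every fit.

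The animal numbers in the labels fall into 2 ranges of close numbers, the lower with 2 wt (replicates 2 and 3) and 2 Ts66Yah mice (replicates 5 and 6) and the higher with 2 wt (replicates 4 and 5) and 4 Ts66Yah mice (replicates 1 to 4), while wt replicate 1 is in neither. What the numbers stand for is not given in the sources used here. Within each range, every called gene that could be tested had the sign of the whole comparison, 50 of 50 in the lower and 51 of 51 in the higher range, but these are the same libraries that chose the genes. The sizes differed for some. The log2 ratio of Ucp2 was -0.999 in the lower and -0.55 in the higher range, that of Crb1 0.80 and 1.66, that of Slc5a5 1.66 and 1.09 and that of Col4a1 0.74 and 0.35. Rfx5 was at -0.54 and -0.42, Htr3a at 0.53 and 0.56 and Gpc5 at -0.44 and -0.30. The list medians changed sign between the ranges for 22 of the 40 lists, and for 9 of them both values were over 0.1 in size. From the lower to the higher range, the median was -0.28 and 0.633 for meningeal fibroblasts, -0.431 and 0.434 for ependymal cells, -0.713 and 0.194 for choroid plexus, and -0.33 and 0.262 for erythroid cells. It was -0.262 and 0.266 for reactive astrocytes, -0.236 and 0.213 for mature oligodendrocytes, -0.202 and 0.209 for thalamic neurons, and -0.108 and 0.277 for complement. For activity-regulated genes it was 0.431 and -0.271. Microglia were at 0.071 and -0.157 and the circadian list at -0.155 and 0.003, whereas the interferon list was at 0.262 and 0.115. With the range as a block, which drops wt replicate 1, 9 of the 23 higher and 3 of the 28 lower genes were kept.

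**Figure D5:**
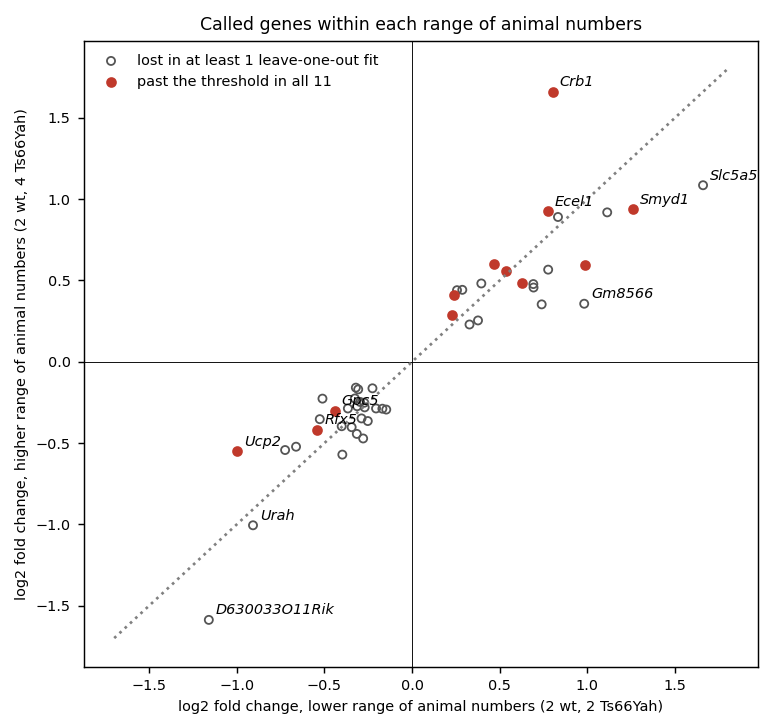
Log2 fold change of each called gene within the lower range of animal numbers (horizontal axis) and within the higher range (vertical axis), filled in red where all 11 leave-one-out fits kept the gene, with the line of equal values dotted. All 50 genes tested in both ranges have equal signs, and Crb1 is higher in the higher range while Slc5a5 is higher in the lower range.

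In the EC of the same animals, which are not independent of the HIP libraries, 50 of the 51 genes could be tested. The threshold was passed in the EC by 5 of 17565 tested genes outside the segment (0.0285%). Of the 50, 2 were among them, Gm11966 (log2 ratio 0.80, SE 0.13, adjusted p 0.0119 by edgeR) and Gm42608 (1.30, SE 0.21, adjusted p 0.0119 by edgeR). In the EC, Rfx5 was at 11.8 CPM on average in wt and 8.48 in Ts66Yah, a log2 ratio of -0.48 (SE 0.11). Ucp2 was at 26.8 and 17.4 CPM (-0.62, SE 0.13), and Gpc5 at 52.7 and 45.1 CPM (-0.22, SE 0.06). Fgf1 had a log2 ratio of 0.27 (SE 0.08) and Htr3a one of 0.35 (SE 0.13). A difference of the genotype effect between the regions was tested as an interaction over all 22 libraries, and 0 of 19074 genes (0.0%) passed by edgeR or by DESeq2. In edgeR 388 genes (2.03%) had an unadjusted p under 0.05. With the animal as a block, which takes account of the 2 regions coming from the same mice, 0 genes passed and 726 (3.81%) were at an unadjusted p under 0.05. The HIP values that chose the 51 genes enter this contrast, so their share cannot be read against these. Without the block, 4 of them were at an unadjusted interaction p under 0.05: Fndc9, Fcho1, Col4a1 and Prx, with edgeR p-values of 0.00292, 0.00319, 0.00843 and 0.0111 and an adjusted p of 1.0 for each. With the block there were 11, and 0 of them passed after adjustment. The 7 added were Crb1, Slc25a34, Fam213b, Ecel1, Slc5a5, Urah and Gar1, with unadjusted edgeR p-values of 0.0258, 0.0274, 0.0312, 0.0316, 0.0397, 0.0413 and 0.0477. In the EC, Fcho1 was at 54.9 and 54.7 CPM on average in wt and Ts66Yah, with a log2 ratio of -0.01 (SE 0.11). Fndc9 had one of 0.07 (SE 0.16), Col4a1 of 0.10 (SE 0.08) and Prx of 0.15 (SE 0.15).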

How the data were processed

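RNA of the HIP of 11 male mice (5 wt and 6 Ts66Yah) was sequenced as single-end reads of 50 bases. Per the study's methods, the authors aligned the reads with Hisat2 to GRCm38 with the annotation of Ensembl release 99 and counted them per gene with HTSeq-count. The strand setting and versions are not given in the sources used here, and the submitters' processing notes name bcl2fastq 2.17.1.14, DESeq2 and mm10. The deposited values are raw counts per gene, from 25900479 to 50105778 in total per HIP library, and were not normalized. Reads were counted without molecular identifiers.

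The HIP libraries were fitted alone with edgeR 4.0.16 (R 4.3.3): filterByExpr, TMM factors, the quasi-likelihood F test and Benjamini-Hochberg adjustment over all 18452 tested genes, with a threshold of 0.05. SE is the absolute log2 fold change divided by the square root of F. The script was tested on simulated data. The common biological coefficient of variation was 0.132. No pair of libraries of a group agreed within sampling noise (the smallest chi-square per gene was 10.5).

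Genes named by rule were the 15 with the largest change in each direction at a mean of at least 1 CPM, those kept in all 11 leave-one-out fits, and in each list the called members, the member with the highest CPM and the member with the smallest p. The other called genes are named so that all 51 are accounted for. The samples, lists and tests were chosen with earlier results of these data known. Alternatives were DESeq2 1.42.0, limma voom 3.58.1, other factors and filters, blocks, subsets of animals and leave-one-out fits. A GC correction (lowess of span 0.3 per library) was added after the data were seen. Shared sequence was found with blastn 2.17.0 at 90% identity over 80% of the transcript. Some results that the rule would name are not reported here.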

Additional observations from a re-analysis of the deposited data

Results flagged for a closer look

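In 16 of 182 groups of libraries examined, 1 library lay far from the others of its genotype, where chance alone would flag about 5% of groups. Among higher genes, Slc5a5 was at 4.58 CPM in wt replicate 3, against 11.6 to 13.3 in the other wt libraries. Crb1 and Ecel1 were at 2.91 and 3.63 CPM in Ts66Yah replicate 4, against at most 2.11 and 2.62 in the other Ts66Yah libraries. As3mt was at 12.9 CPM in wt replicate 3, against at most 11.5. Srl was at 29.1 CPM in Ts66Yah replicate 2, against at most 25.3, and Uhmk1 at 518 CPM in Ts66Yah replicate 6, against at most 448.

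Among lower genes, Fcho1 was at 54.6 CPM in Ts66Yah replicate 1, against at most 42.4, and Arhgef10l at 40.7 CPM in Ts66Yah replicate 3, against at most 35.2. Phka1 was at 25.2 CPM in Ts66Yah replicate 2, against at least 27.9. Kifc2 and Matk were at 500.0 and 160.9 CPM in wt replicate 2, against at least 554 and 174 in the other wt libraries, and Pak6 was at 66.2 CPM in wt replicate 4, against at least 76.1.

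Of summed marker levels, the interneuron list was at 1388 CPM in Ts66Yah replicate 5, against at least 1553, and the splicing list at 4755 CPM in Ts66Yah replicate 2, against at least 5146. The neocortical list was at 125.5 CPM in wt replicate 1, against at least 137, and the activity-regulated list at 1246 CPM in wt replicate 5, against at most 952. Each of the 11 libraries had 1 to 3 of these values.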

How the results depend on the processing

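In 1164 refits of single called genes, 677 kept the call, 487 lost it and 0 reversed its sign. Beside 51 calls outside the segment (23 higher, 28 lower), DESeq2 gave 299 (117 and 182), which included all 51, and limma voom gave 52. Without a filter on low counts there were 35 higher genes, and in a fit of all 22 libraries 15 lower genes. With the animal number range as a block there were 17 calls (12 higher, 5 lower), within the lower range there were 26 (14 and 12), and within the higher range there were 91, of which 73 were lower. Leaving out 1 library gave 23 to 91 calls, 12 to 26 higher genes and 8 to 67 lower genes. The total moved by over 1.5 times without Ts66Yah replicate 3 (25) or 6 (23) and without wt replicate 1 (31), 2 (91), 3 (25), 4 (26) or 5 (24). The cause was not tested. With the replicate number as a block there were 14 calls (8 higher, 6 lower), 13 of them among the 51. No sign was seen that the numbers pair the samples. The deviations of same-numbered libraries correlated at -0.007 to 0.097, within the -0.227 to 0.165 of all pairs of a wt and a Ts66Yah library. Such correlations cannot show that a pairing is absent. The GC correction, added after the data were seen, gave 30 higher and 22 lower genes. Of 920 refits of list medians, 26 moved by more than the spread between libraries. For genes under about 1 CPM, such as Urah and D630033O11Rik, depth limits precision.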
